A study of Mus musculus with 6 samples.

Results

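Toll-like receptors are germline-encoded sensors of microbial molecules, and 10 of their genes were followed here in mouse bone marrow: Tlr1, Tlr2, Tlr3, Tlr4, Tlr5, Tlr6, Tlr7, Tlr8, Tlr9 and Tlr13. They were taken by gene symbol and not by a cut on their values, but with earlier results of these data known. All 10 were found among the 46603 genes that each count file lists. Marrow was spun from the leg bones of single C57/Bl6 mice aged 8 months, 3 mice lacking nuclear myosin 1 by knockout (NM1 KO) and 3 wild type controls (NM1 WT), and total RNA was sequenced as 1 library per mouse. Nuclear myosin 1 is the nuclear form of the class I myosin gene Myo1c. No cells were sorted, so fewer cells of a type and less RNA per cell cannot be told apart. The labels do not give the sex of the mice.

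The receptors fall into a pair of classes by where they meet their ligands. Tlr1, Tlr2, Tlr4, Tlr5 and Tlr6 act at the cell surface, where TLR2 paired with TLR1 or TLR6 senses bacterial lipopeptides, TLR4 senses lipopolysaccharide and TLR5 senses flagellin. Tlr3, Tlr7, Tlr8, Tlr9 and Tlr13 act in endosomes. There TLR3 senses double-stranded RNA, and TLR7 and, in humans, TLR8 sense single-stranded RNA or its breakdown products. TLR9 senses DNA rich in unmethylated CpG, and TLR13, which humans lack, senses bacterial ribosomal RNA. Ligand binding recruits the adaptors MyD88 or TRIF and leads to NF-kB and interferon regulatory factor activity. In marrow the receptors are known from neutrophils, monocytes, macrophages, dendritic cells and B cells, and blood-forming progenitors also carry some of them.

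None of the 10 receptor genes passed the threshold for a difference between genotypes, and the values of all 10 overlapped between the genotypes. Tlr2 and Tlr13 were the most abundant receptor transcripts in every mouse, and Tlr3 and Tlr5 the least abundant on average. Surface receptors made up more of the summed receptor level than endosomal ones in all 6 mice. Several receptors varied more between mice of the same genotype than between the genotype means. Tlr4, Tlr5 and Tlr8 separated the libraries with Y-linked transcripts from those without, as did 14.5% of all tested genes. The labels do not give that grouping.

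Library totals lay between 15145052 and 22618802 counts, and each NM1 KO library was deeper than each NM1 WT library. Red cell and neutrophil transcripts typical of marrow (Hbb-bs, S100a9, Mpo) were abundant in every library. Myo1c had 73.8, 59.1 and 59.7 CPM (counts set relative to library size, after scaling for composition) in the NM1 KO mice and 89.8, 115 and 102 CPM in NM1 WT. Its log2 fold change was -0.67 (SE 0.14), with adjusted p = 0.0516 in edgeR's quasi-likelihood test; gene counts add up all isoforms, so this does not check the loss of the nuclear form. NM1 KO 1, NM1 KO 2 and NM1 WT 2 held 4566, 3756 and 2723 counts of the Y-linked genes Ddx3y, Uty, Kdm5d and Eif2s3y together, and NM1 KO 3, NM1 WT 1 and NM1 WT 3 held 0. Counts of Xist, the X-linked RNA of female cells, ran the opposite way. They were 14, 6 and 20 in NM1 KO 1, NM1 KO 2 and NM1 WT 2. In NM1 KO 3, NM1 WT 1 and NM1 WT 3 they were 5731, 4141 and 4571. By these transcripts the libraries with Y-linked counts read as male and the others as female. Both genotypes therefore mix both states, in unequal numbers.

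Sequences of the receptor promoters are shown for the most abundant genes (Tlr2, Tlr13), the least abundant gene (Tlr3) and the one gene whose window held an octamer (Tlr9). Each window runs from 250 bases before to 50 bases after an annotated gene start and is written in the direction of transcription, from RefSeq (GRCm38.p6). Capitals mark matches on either strand to GAGGAA (a core bound by the myeloid and B cell factor PU.1), ATGCAAAT (the octamer), GGGA and TTCC with 2 bases between (NF-kB), or GAAA repeated with 2 bases between (an interferon-stimulated response element). Matches to the other letters searched, named after the sequences, are not in capitals.
Tlr2 (chr3:83841559-83841858, minus strand): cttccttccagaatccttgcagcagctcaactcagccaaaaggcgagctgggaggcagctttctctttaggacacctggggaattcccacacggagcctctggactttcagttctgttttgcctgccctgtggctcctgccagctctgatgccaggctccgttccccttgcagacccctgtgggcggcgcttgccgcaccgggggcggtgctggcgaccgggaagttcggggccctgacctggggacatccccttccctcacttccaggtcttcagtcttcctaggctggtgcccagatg
Tlr13 (chrX:106143025-106143324, plus strand): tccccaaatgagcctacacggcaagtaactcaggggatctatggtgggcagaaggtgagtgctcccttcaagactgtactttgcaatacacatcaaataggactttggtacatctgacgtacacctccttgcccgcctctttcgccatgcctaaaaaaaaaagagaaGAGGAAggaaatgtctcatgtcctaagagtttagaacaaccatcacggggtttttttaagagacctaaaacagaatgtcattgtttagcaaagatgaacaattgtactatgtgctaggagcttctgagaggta
Tlr9 (chr9:106222348-106222647, plus strand): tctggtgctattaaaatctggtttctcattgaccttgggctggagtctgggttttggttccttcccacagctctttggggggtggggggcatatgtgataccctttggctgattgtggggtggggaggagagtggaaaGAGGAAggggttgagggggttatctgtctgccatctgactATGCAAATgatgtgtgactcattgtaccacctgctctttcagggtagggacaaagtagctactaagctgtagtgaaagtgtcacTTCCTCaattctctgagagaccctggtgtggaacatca
Tlr3 (chr8:45410331-45410630, minus strand): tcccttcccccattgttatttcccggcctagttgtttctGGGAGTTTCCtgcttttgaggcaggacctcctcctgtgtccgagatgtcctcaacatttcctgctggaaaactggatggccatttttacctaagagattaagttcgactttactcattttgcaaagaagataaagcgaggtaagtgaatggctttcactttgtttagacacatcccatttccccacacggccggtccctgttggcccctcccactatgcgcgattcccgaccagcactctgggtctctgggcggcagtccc

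Of the 10 receptors, 8 had at least 1 window in the table, with 10 windows in all. GAGGAA occurred in 4 of these 10 windows (1 each of Tlr1, Tlr8, Tlr9 and Tlr13), against 28.3% of all 32851 windows of the same length. The octamer was found in 1 of the 10 windows, that of Tlr9 (1.74% of all windows), the NF-kB letters in 1, that of Tlr3 (1.47%), and the interferon element in 1 of the windows of Tlr6 (3.44%). In the Tlr13 window GAGGAA began 83 bases before the gene start, and in the Tlr9 window it lay 112 bases before the start and, on the opposite strand, 13 bases after it. TTGCNNAA (C/EBP) was found in 4 of the 10 windows (1 each of Tlr3, Tlr6, Tlr8 and Tlr13, against 10.8% of all windows), TATAAA in 2 (Tlr6 and Tlr8, 13.6%) and GAGGAAGT, which contains GAGGAA, in 2 (Tlr1 and Tlr9, 3.2%). The Tlr2 window held none of the letters as spelled in the search. It does hold gggaattccc, which a looser spelling of the NF-kB letters would match. Looser spellings were not searched in any window. A match is a description of letters and not of binding, and its absence says nothing about a factor.

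One further sequence bears on the counts themselves. Tlr1 and Tlr6 lie near each other on the minus strand of chromosome 5 (64924679 to 64933563 and 64952031 to 64960097, GRCm38) and share an identical coding stretch of 229 bases, at 64925537 to 64925765 in Tlr1 and 64953828 to 64954056 in Tlr6.
Shared stretch of Tlr1 and Tlr6: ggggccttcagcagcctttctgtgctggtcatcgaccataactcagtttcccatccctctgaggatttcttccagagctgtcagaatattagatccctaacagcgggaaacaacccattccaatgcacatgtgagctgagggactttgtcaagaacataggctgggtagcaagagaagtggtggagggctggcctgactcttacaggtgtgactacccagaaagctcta

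In any other pair of receptors the longest identical run between their longest transcripts was 18 bases (Tlr4 and Tlr6). Only the longest run of each pair was sought, so further shared runs of Tlr1 and Tlr6 are not listed. Of all stretches of 150 bases in the Tlr1 transcripts 4.3% also occurred in another gene, in each case Tlr6, and of those in the Tlr6 transcripts 3.86% occurred in Tlr1. Tlr3 was the only other receptor with shared stretches (1.88%), which came from Gm45542, an antisense gene that overlaps 381 bases of its exons. At 75 bases the shares were 10.6% for Tlr1, in part with genes other than Tlr6, 9.25% for Tlr6 and 4.28% for Tlr3. For Tlr2, Tlr4, Tlr5, Tlr7, Tlr8, Tlr9 and Tlr13 the share was 0 at both lengths. With read length and strand setting not given in the sources used here, a small part of the Tlr1, Tlr6 and Tlr3 counts is uncertain.

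To compare levels between genes, counts were divided by the merged exon length and scaled to an equal total in each library (TPM). Tlr2 had 36.6 ± 8.68 TPM (SD, n = 6) and stood first among the 10 in all 6 libraries. Tlr13 had 23.5 ± 7.71 TPM and stood second in all 6. After these came Tlr7 at 6.14 ± 1.70, Tlr1 at 5.78 ± 1.86, Tlr6 at 4.76 ± 0.751 and Tlr4 at 4.04 ± 1.46 TPM. Tlr9 (3.03 ± 0.773 TPM) and Tlr8 (3.03 ± 1.39 TPM) had the same mean level. Tlr5 at 0.710 ± 0.368 and Tlr3 at 0.512 ± 0.331 TPM closed the list.

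Among 46091 annotated genes ranked by mean level, Tlr2 stood at place 3027, Tlr13 at 4280 and Tlr7 at 8936, while Tlr5 stood at 14755 and Tlr3 at 15604. Only the step from Tlr13 to Tlr7 was larger than the spread over all libraries: the mean of Tlr13 was 3.82 times that of Tlr7, and their ranges did not touch. The other 8 pairs of neighbours in this order overlapped in range over the 6 libraries. Within each library, however, Tlr2 lay above Tlr13 in 6 of 6, with a ratio of means of 1.56, and Tlr8 lay above Tlr5 in 5 of 6. From Tlr7 down to Tlr8 neighbours changed places between libraries, and Tlr9 lay above Tlr8 in 2 of 6. Mouse Tlr12, outside the 10, had 3.08 to 5.84 TPM, and Tlr11 had 0.0818 to 0.255 TPM.

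**Figure D1:**
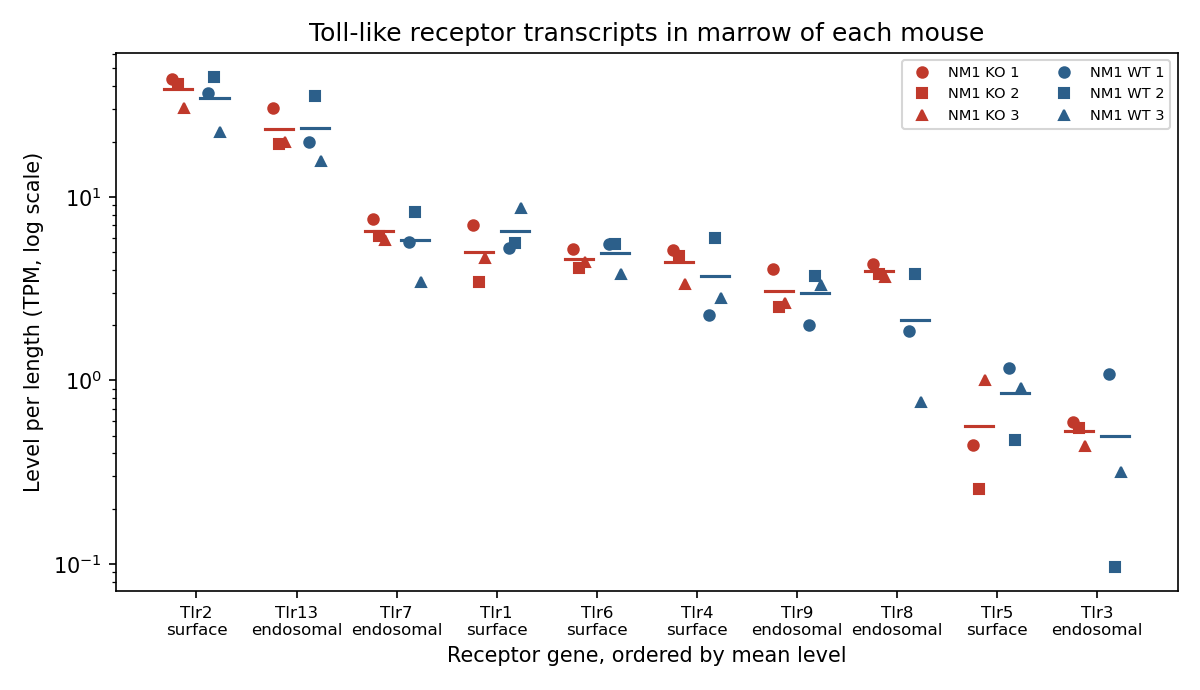
Level per length (TPM, log scale) of each receptor gene in each library, with NM1 KO in red and NM1 WT in blue, 1 symbol per mouse and a line at each genotype mean. Tlr2 and Tlr13 lie above the rest in all 6 mice, and for each gene the red and blue points overlap.

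NM1 KO was then set against NM1 WT, the one comparison of the design. In edgeR's quasi-likelihood test with Benjamini-Hochberg adjustment 0 of the 10 receptors passed an adjusted p of 0.05, where 0.776% of 15069 tested genes passed (0.591% higher and 0.186% lower in NM1 KO). At an unadjusted p under 0.05 there were also 0 of 10, against 16.8% of all tested genes. DESeq2 and limma-voom likewise called 0 of 10 at an adjusted p of 0.05. The values of 0 of 10 receptors were free of overlap between genotypes, against 20.5% of all tested genes (10.8% with NM1 KO higher, 9.75% with NM1 KO lower). The median log2 fold change of the 10, NM1 KO over NM1 WT, was -0.05, with 4 positive and 6 negative, and that of all tested genes was 0.00 (0.0019).

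Tlr2, the shared partner of the lipopeptide receptors (ENSMUSG00000027995, chromosome 3, 83836272 to 83841767), had 59.9, 56.1 and 41.1 CPM in NM1 KO 1 to 3 and 56.5, 62.1 and 32.7 CPM in NM1 WT 1 to 3. The highest and the lowest value were both in NM1 WT. Its log2 fold change was 0.05 with a 95% interval from -0.43 to 0.54 (adjusted p = 0.936), which covers differences of either sign.

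Tlr1 and Tlr6 encode the partners of TLR2, and neither passed. Tlr1 (ENSMUSG00000044827) had 10.6, 5.16 and 6.99 CPM in the NM1 KO mice and 8.96, 8.63 and 14.03 CPM in NM1 WT, with NM1 KO 1 above both of the lower NM1 WT libraries. The log2 fold change was -0.48 (95% interval -1.16 to 0.21, adjusted p = 0.48). Tlr6 (ENSMUSG00000051498) had 8.70, 6.91 and 7.36 CPM against 10.5, 9.504 and 6.82 CPM, with the lowest value in NM1 WT 3. The difference on the log2 scale was -0.22 (-0.79 to 0.35).

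Tlr4, the lipopolysaccharide receptor (ENSMUSG00000039005, chromosome 4, 66827584 to 66930284), had 12.9, 11.9 and 8.35 CPM in the NM1 KO mice and 6.38, 15.3 and 7.48 CPM in NM1 WT. The NM1 WT values thus lay on both sides of all NM1 KO values, and the log2 fold change was 0.18 (-0.54 to 0.90). Tlr5, the flagellin receptor (ENSMUSG00000079164, chromosome 1, 182954788 to 182976044), had 0.957, 0.553 and 2.16 CPM against 2.85, 1.04 and 2.10 CPM. These values rest on 12 to 46 counts per library, and on fewer read pairs if both mates were counted. The estimate of -0.70 on the log2 scale had the widest interval of the surface class, from -2.09 to 0.68.

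Among the endosomal receptors, Tlr8 showed the largest difference of the 10 and did not pass. Tlr8 (ENSMUSG00000040522, chromosome X, 167242696 to 167264329) had 6.96, 6.17 and 5.91 CPM in the NM1 KO mice and 3.39, 6.26 and 1.31 CPM in NM1 WT. NM1 WT 2 lay inside the NM1 KO range, and the other NM1 WT libraries lay below it. The log2 fold change was 0.79 (-0.216 to 1.796, adjusted p = 0.42). NM1 KO averaged 6.35 ± 0.548 CPM and NM1 WT 3.66 ± 2.48 CPM (SD, n = 3), so the NM1 WT mice spread more widely. Without NM1 WT 2 the log2 fold change was 1.44 and without NM1 WT 3 it was 0.39, neither past the threshold.

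Tlr7, its neighbour on the X chromosome (ENSMUSG00000044583, 167304929 to 167330558), encodes a receptor for single-stranded RNA. It had 13.9, 11.2 and 10.7 CPM in the NM1 KO mice and 11.7, 15.6 and 6.69 CPM in NM1 WT. The order of the libraries resembled that of Tlr8 in NM1 KO, but NM1 WT 1 was not low. On the log2 scale the difference was 0.07 (-0.56 to 0.71). Tlr13 (ENSMUSG00000033777, chromosome X, 106143204 to 106160493) had 59.3, 37.9 and 38.5 CPM against 43.2, 70.5 and 32.3 CPM. Both its highest and lowest library were NM1 WT, and the log2 fold change was -0.11 (-0.68 to 0.46).

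Tlr9, the DNA receptor (ENSMUSG00000045322, chromosome 9, 106222598 to 106226883), had 6.35, 3.96 and 4.13 CPM in the NM1 KO mice and 3.53, 5.91 and 5.51 CPM in NM1 WT, with a log2 fold change of -0.05 (-0.81 to 0.71). Tlr3, the receptor for double-stranded RNA (ENSMUSG00000031639, chromosome 8, 45395665 to 45411080), had 1.39, 1.29 and 1.03 CPM against 2.85, 0.232 and 0.787 CPM. Those NM1 WT values rest on 42, 4 and 12 counts, and on fewer read pairs if both mates were counted. NM1 WT 1 was the highest and NM1 WT 2 the lowest of all libraries, and the interval from -1.71 to 1.62 around -0.05 is wide at this depth.

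**Figure D2:**
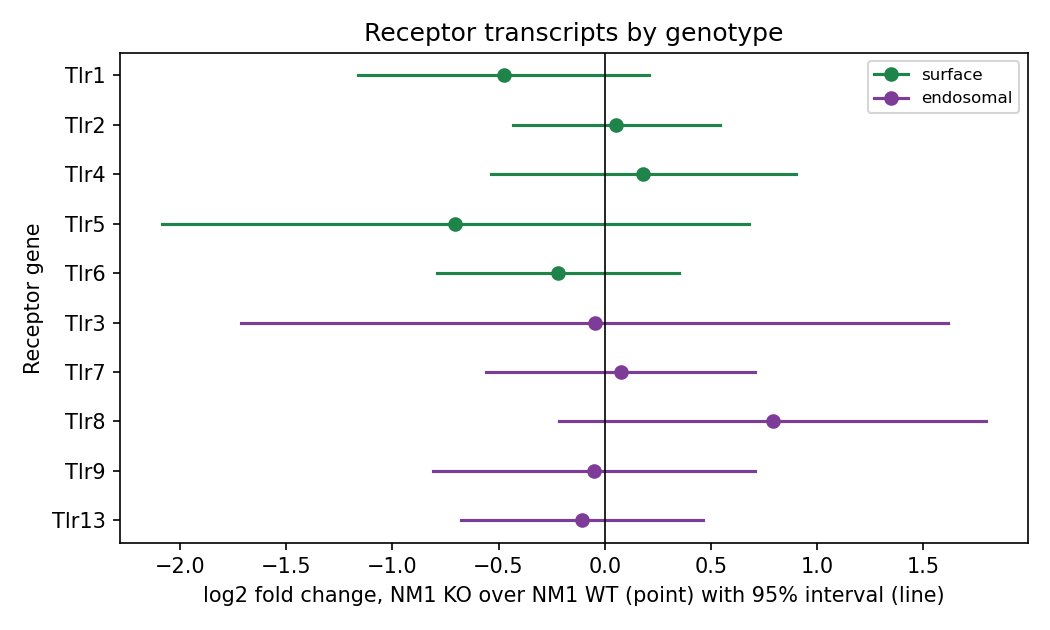
Log2 fold change of each receptor, NM1 KO over NM1 WT (point), with its 95% interval from edgeR's quasi-likelihood test (line), surface receptors in green and endosomal ones in purple. Each of the 10 intervals includes 0, and those of Tlr3 and Tlr5 are the widest.

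Surface and endosomal receptors were then compared as classes, without a test. The summed level of the 5 surface genes was 61.8, 53.7 and 43.8 TPM in the NM1 KO mice and 51.2, 62.2 and 38.8 TPM in NM1 WT. That of the 5 endosomal genes was 47.0, 32.5 and 32.5 TPM in the NM1 KO mice and 30.4, 51.4 and 23.4 TPM in NM1 WT. NM1 WT 2 and NM1 KO 1 were the highest for both classes and NM1 WT 3 the lowest for both. The NM1 KO mice had an endosomal share of 41.2 ± 3.03% and the NM1 WT mice one of 40.0 ± 4.49% (SD, n = 3), a difference of 1.12 percentage points, smaller than either SD. The median log2 fold change was -0.22 for the surface class and -0.05 for the endosomal class, and each class had 2 positive and 3 negative members. The sign of the endosomal median was not stable: it was positive under 6 of 15 alternatives, up to 0.26 without NM1 WT 2.

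A single gene carried most of each class. Tlr2 made up 58.1 to 76.7% of the surface sum and Tlr13 60.0 to 69.1% of the endosomal sum. Together they held 61.4 to 70.6% of the level of all 10 receptors. Tlr13 took 62.1 ± 2.54% of the endosomal sum in NM1 KO and 67.0 ± 1.98% in NM1 WT: the highest NM1 KO value was 64.9% and the lowest NM1 WT value 65.2%, so the groups were apart by a narrow margin. This share was singled out after its values were seen. Tlr12 (3.08 to 5.84 TPM) and Tlr11, outside the 10, also act in endosomes and are not in the sum. No share was computed with them, so the separation is given for this choice of genes only.

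**Figure D3:**
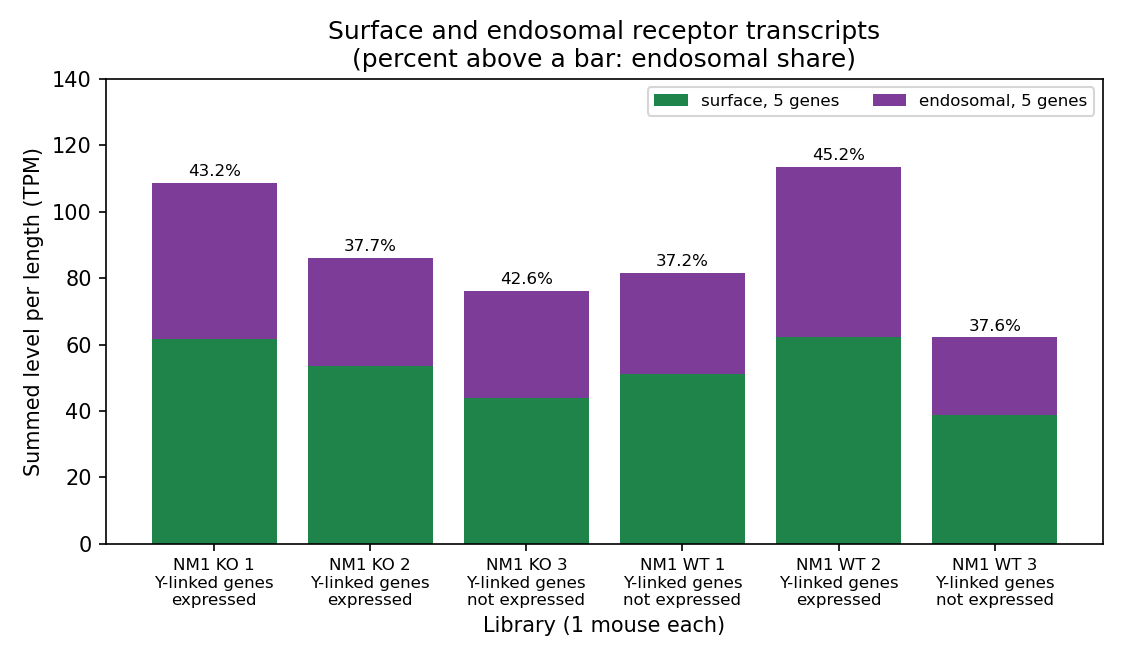
Summed level per length (TPM) of the 5 surface genes (green) and the 5 endosomal genes (purple) in each library, with the endosomal share above each bar. The total runs from 62.3 TPM in NM1 WT 3 to 114 TPM in NM1 WT 2, so both ends of the range are wild type mice.

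Library by library, the receptors did not move as a block with genotype. Of the 10 genes, 4 were highest in NM1 WT 2 (Tlr2, Tlr4, Tlr7 and Tlr13), while NM1 WT 3 held the lowest value of Tlr2, Tlr6, Tlr7, Tlr8 and Tlr13. Grouped by Y-linked transcripts instead of genotype, Tlr4 lay between 11.9 and 15.3 CPM in the 3 libraries that had them and between 6.38 and 8.35 CPM in the 3 that had none. Tlr8 lay between 6.17 and 6.96 CPM and between 1.31 and 5.91 CPM in the same groups. Tlr5 ran the opposite way, from 0.553 to 1.04 CPM with Y-linked transcripts and from 2.10 to 2.85 CPM without. These 3 of 10 receptors did not overlap between the states, as did 14.5% of all tested genes, and this grouping was not given by the labels.

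Genotype differences were therefore also read within each state. For Tlr8 the log2 ratio of mean CPM, NM1 KO over NM1 WT, was 0.07 in the libraries with Y-linked transcripts (2 NM1 KO, 1 NM1 WT) and 1.33 in those without (1 NM1 KO, 2 NM1 WT). For Tlr2 it was -0.10 and -0.12, for Tlr1 -0.13 and -0.72, for Tlr6 -0.28 and -0.23, and for Tlr9 -0.20 and -0.13. Tlr7 had -0.31 and 0.22, Tlr13 -0.54 and 0.03, Tlr5 -0.47 and -0.20, Tlr3 2.53 and -0.82, and Tlr4 -0.30 and 0.27. These values have 1 mouse on a side and were not tested. Tlr7, Tlr8 and Tlr13 are on the X chromosome, and the part of sex in their levels was not tested.

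**Figure D4:**
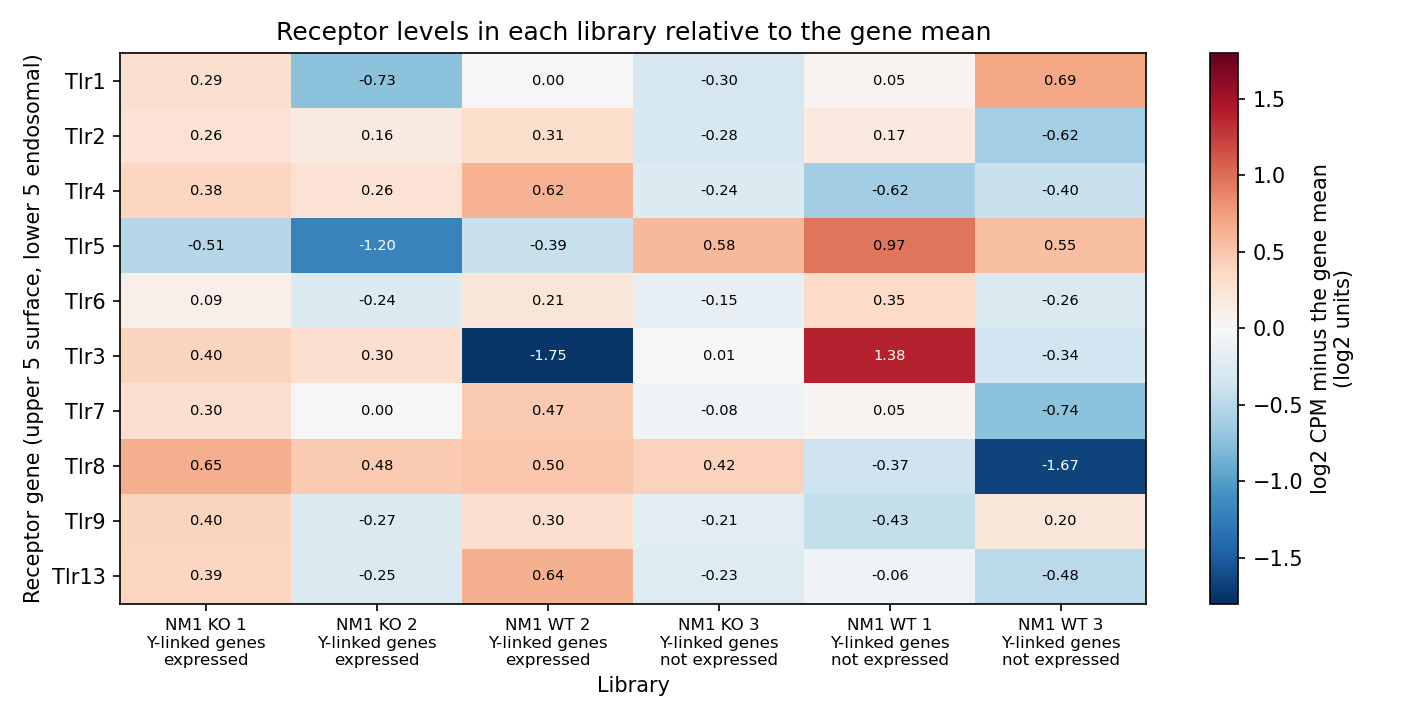
Log2 CPM of each receptor in each library minus its mean over the 6 libraries, with the 3 libraries that hold Y-linked transcripts on the left. Tlr4 and Tlr8 are positive in all 3 of the left columns and Tlr5 is negative there, while NM1 WT 3 has the lowest Tlr8 value at -1.67.

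The genes most like the 3 receptors of smallest p were sought by the root mean square difference of mean-centred log2 CPM over the 6 libraries, among 12747 protein-coding genes each. Tlr8 was closest to Gfra2 (0.04) and Scn4b (0.17), Tlr1 to Rubcnl (0.13) and Rasal2 (0.13), and Tlr5 to Pde9a (0.14) and Kif7 (0.22). These distances compare with standard deviations of 0.89, 0.49 and 0.83 for Tlr8, Tlr1 and Tlr5 themselves over the libraries. Each named gene was picked as closest among 12747 candidates over 6 libraries, so a small distance does not show shared behaviour.

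Genes that work with the receptors were followed through lists drawn by role. Of 85 tested genes in 8 such lists, 0 passed over all genes, 17 had an unadjusted p under 0.05 (20.0%, against 16.8% of all tested genes) and 22 did not overlap between genotypes (25.9%, against 20.5%). Their median log2 fold change was -0.05. DESeq2 called 4 of the 85 (Cd36, Il1a, Irf7 and Pld4), where it called 794 of all 15069 tested genes. Limma-voom called 0 of the 85 and 37 of all tested genes.

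Co-receptors that hand ligands to the surface receptors had a median log2 fold change of -0.10, with 1 of 6 positive. Cd14, which passes lipopolysaccharide to TLR4, had 10.5 ± 2.91 CPM in the NM1 KO mice and 10.9 ± 0.647 CPM in NM1 WT. Ly96, the MD-2 subunit of that receptor, had 4.38 ± 0.958 and 4.86 ± 0.117 CPM. Per length, Cd14 (9.40 to 16.6 TPM) and Ly96 (7.74 to 11.8 TPM) both lay above Tlr4 (2.27 to 5.97 TPM) in range. Cd36, a scavenger receptor that also aids TLR2 with TLR6 and is found on platelets, erythroid cells, macrophages and endothelium, had 158, 179 and 171 CPM in the NM1 KO mice and 123, 130 and 123 CPM in the NM1 WT mice. Those values did not overlap, and its log2 fold change of 0.44 (SE 0.12) had adjusted p = 0.107. Ly86, the partner of the TLR4-like receptor CD180, did not overlap either (66.7 ± 8.08 and 86.5 ± 11.6 CPM, adjusted p = 0.213).

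Genes that carry endosomal receptors to their compartment or trim receptors and ligands there had a median of -0.02, and 7 of 14 (50%, against 20.5% of all tested genes) did not overlap between genotypes, 3 with NM1 KO higher and 4 lower. Pld4, an endosomal exonuclease that degrades TLR9 ligands, had 131, 102 and 121 CPM in the NM1 KO mice and 179, 158 and 171 CPM in the NM1 WT mice. Its log2 fold change of -0.52 (SE 0.13) had adjusted p = 0.093, the smallest of any gene in the 8 lists. Its relative Pld3 had 109 ± 14.3 and 87.4 ± 7.98 CPM, higher in each NM1 KO library than in any NM1 WT library (adjusted p = 0.27). Unc93b1, the chaperone without which endosomal receptors do not leave the endoplasmic reticulum, had 250.7 ± 33.7 and 302 ± 16.3 CPM (adjusted p = 0.336), and Hsp90b1, a folding chaperone of most TLRs, 758 ± 140 and 764 ± 109 CPM. Unc93b1 transcripts stood at 155 to 209 TPM, above the summed level of the 5 endosomal receptors in every library.

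Adaptors showed no call and no gene free of overlap among 5 tested, with a median of -0.15. Myd88, used by all the receptors except TLR3, had 67.2 ± 1.20 CPM in the NM1 KO mice and 73.5 ± 22.6 CPM in NM1 WT, where NM1 WT 2 stood at 99.4 CPM. Tirap, the bridging adaptor of TLR2 and TLR4, had the smallest p of the list (31.4 ± 5.20 and 40.7 ± 8.31 CPM, adjusted p = 0.334). Ticam1, the TRIF adaptor of TLR3 and TLR4, had 12.6 ± 1.41 and 15.3 ± 3.18 CPM. Of 17 kinases and ubiquitin ligases, 9 had a positive log2 fold change and 8 a negative one (median 0.02). Tab3, a TAK1-binding subunit, had 55.0 ± 4.59 and 39.4 ± 7.18 CPM (adjusted p = 0.158).

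Of 9 transcription factors downstream, 8 were lower on average in NM1 KO and 1 was higher, and the median log2 fold change was -0.13. Irf7, which drives type I interferon after TLR7 and TLR9 and is itself induced by interferon, had 56.3, 60.0 and 67.7 CPM in the NM1 KO mice and 142, 63.3 and 116 CPM in NM1 WT. NM1 WT 2 again lay inside the NM1 KO range. Its difference of -0.80 on the log2 scale (SE 0.23) had adjusted p = 0.127. Irf7 was called by DESeq2, with no low-count filter and without NM1 WT 2. Leaving out NM1 WT 2 also leaves no NM1 WT library with Y-linked transcripts. Irf5 had 87.8 ± 11.9 and 112 ± 9.40 CPM without overlap (adjusted p = 0.214).

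Negative regulators had a median of 0.04 over 12 genes, and Tnfaip3, the NF-kB inhibitor A20, had 24.5 ± 3.82 and 18.4 ± 1.13 CPM (adjusted p = 0.256). Of 22 target cytokines and enzymes, 15 were tested and 3 had 0 counts in all libraries (Il12b, Il23a and Ifnb1), which allows up to 0.053 CPM over the 6 libraries. The median of the 15 was -0.01. Il1a, interleukin 1 alpha, had 4.79, 10.5 and 2.91 CPM in the NM1 KO mice and 0.679, 2.09 and 1.57 CPM in NM1 WT, and its log2 fold change was 2.06 (SE 0.55) at adjusted p = 0.107. Among receptors of the IL-1 family, which share the intracellular TIR domain with the TLRs, 0 of 7 passed or were free of overlap, and Il1rl1, the interleukin 33 receptor, had 49.9 ± 14.1 and 31.7 ± 6.06 CPM (adjusted p = 0.155).

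Ccl2, a monocyte chemokine on the target list, was singled out after its values were seen. It had 17.5 and 33.2 CPM in NM1 KO 1 and NM1 KO 2 and 9.504 CPM in NM1 WT 2, the libraries with Y-linked transcripts. In the others, NM1 KO 3, NM1 WT 1 and NM1 WT 3, it had 0.657, 1.02 and 0.656 CPM. Its genotype difference had adjusted p = 0.326, and Ccl2 was called with no low-count filter.

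Markers of the cells that could hold receptor transcripts are given beside these values. All 12 neutrophil markers had negative values (median log2 fold change -0.47, 0 past the threshold), and their summed level was 37890 to 49820 CPM in the NM1 KO mice and 49430 to 68180 CPM in the NM1 WT mice. All 8 monocyte markers were negative too (median -0.39, 0 past the threshold), with sums of 984 to 1385 and 1503 to 1983 CPM. Resident macrophage markers had a median of 0.81 over 9 genes, of which Vcam1 and Mrc1 rose (adjusted p = 0.0396 each, where 0.591% of all tested genes were called higher), and sums of 991 to 2077 and 627 to 814 CPM. The 8 B cell markers (median 0.04) and the 7 markers each of plasmacytoid (-0.14) and conventional dendritic cells (-0.15) held 0 genes past the threshold, and their sums overlapped between genotypes. None of these markers was at 0 in any library, and the part of these cells in the receptor levels was not tested.

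Of 7 platelet and megakaryocyte markers 5 rose, of 9 stromal and endothelial genes 4 rose and of 6 skeletal muscle genes 4 rose, where 0.591% of all tested genes were called higher. Of 8 eosinophil and basophil genes 4 fell, where 0.186% of all were called lower. Of the 7 T and NK cell markers (median -0.05) Cd4 rose, with a log2 fold change of 1.19 and adjusted p = 0.0302. None of the 6 erythroid genes (median 0.19) or the 5 neutrophil precursor genes (median -0.32) passed. The summed level of the muscle genes was 48.9 to 65.4 CPM in the NM1 KO mice and 14.4 to 19.7 CPM in NM1 WT, and Mb, the muscle oxygen carrier, had 0 counts in all 3 NM1 WT libraries. The part of these other cells in the receptor levels was not tested.

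**Figure D5:**
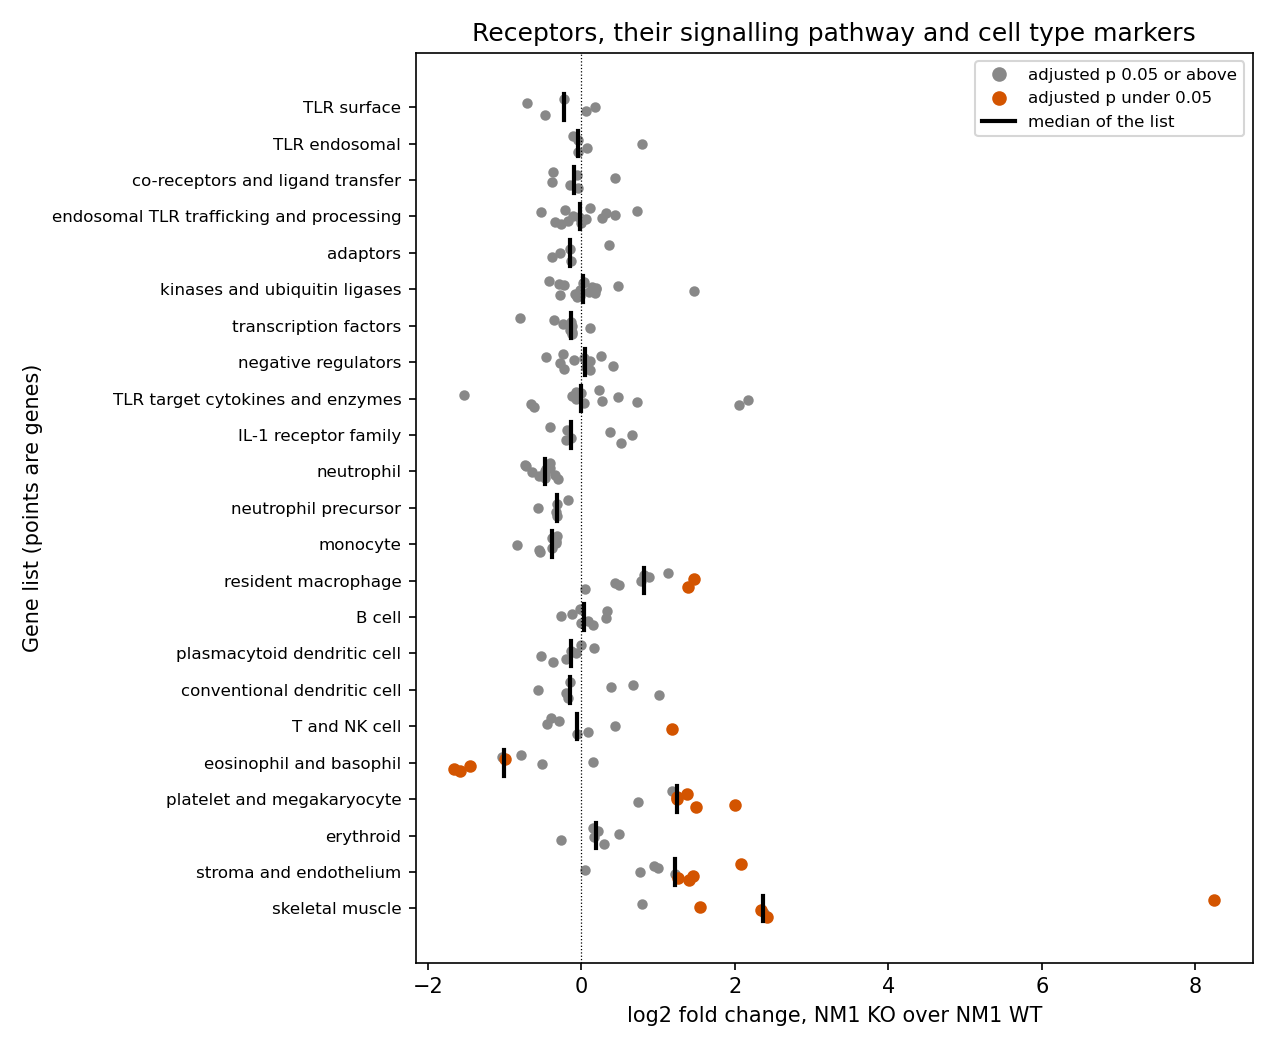
Log2 fold change of each tested gene (point), NM1 KO over NM1 WT, by list, with genes past adjusted p of 0.05 in orange and the median of each list as a black bar. The receptor and signalling lists have medians between -0.22 and 0.04 and no orange point. Medians of the platelet, stromal, muscle, eosinophil and resident macrophage lists lie furthest from 0. Those of the neutrophil (-0.47), monocyte (-0.39), neutrophil precursor (-0.32) and erythroid (0.19) lists also lie outside that range.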

How the data were processed

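Gene expression was measured by RNA sequencing of whole marrow from 3 NM1 KO and 3 NM1 WT mice. The deposited files hold raw counts per Ensembl gene. The submitters' processing notes name HTSeq, HISAT2 2.0.4, Trimmomatic 0.36, SAMtools 0.1.19 and FastQC, and the builds GRCm38 and mm10, with annotation release and strand setting not given in the sources used here. Low counts were nearly all even (at least 98.7% of those from 1 to 20 in each library), as if both mates had been counted.

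Of 46603 gene IDs, 46091 matched GENCODE M21 (GRCm38), from which symbols, coordinates and merged exon lengths were taken; unmatched IDs held at most 0.0532% of a library. Genes were kept with filterByExpr (15069 genes), scaled with TMM and tested with edgeR 4.0.16 (R 4.3.3), quasi-likelihood, genotype as the only term, with Benjamini-Hochberg adjustment over all tested genes and a threshold of 0.05. After scaling 1 CPM stood for 14.7 to 23.0 counts. Intervals of log2 fold changes are at 95%, from the standard error and the moderated degrees of freedom. A count of 0 was given a floor of 6 counts (3 read pairs), which covers counting error only. Each sample is a separate mouse, per the labels' protocols.

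Alternatives were RLE and upper-quartile scaling, other filters, DESeq2 1.42.0, limma-voom (limma 3.58.1), a replicate block, halved counts, each library left out and a term for the Y-linked state. The pipeline was run on simulated data as a check of the code. Recovery rates are not given here, so that run does not show the power for the receptors. The members and lists were chosen with earlier results of these data known. The rule for named genes takes the 10 receptors, and from each list the genes past the threshold or else the gene of smallest p. It also takes Tlr11, Tlr12, Myo1c and the 2 genes most like each of the 3 receptors of smallest p; other genes were named after their values were seen.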

Additional observations from a re-analysis of the deposited data

Results flagged for a closer look

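Tlr4 differed in the direction of its genotype difference between libraries with and without Y-linked transcripts. Among those with them, both NM1 KO libraries (12.9 and 11.9 CPM) lay below NM1 WT 2 (15.3 CPM), a log2 ratio of means of -0.30. Among those without, NM1 KO 3 (8.35 CPM) lay above NM1 WT 1 and NM1 WT 3 (6.38 and 7.48 CPM), a log2 ratio of 0.27. The difference between the states was not tested.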

How the results depend on the processing

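The count of receptors past the threshold was 0 under all 16 alternatives. The count at an unadjusted p under 0.05 was less stable. It was 1 of 10 with limma-voom, with the replicate block, with no low-count filter and without NM1 KO 1. Without NM1 WT 2 it was 2 of 10. The share of all tested genes at that p was not computed for these alternatives. Tlr1, Tlr5, Tlr6 and Tlr8 kept their direction under the 15 alternatives run for each, with log2 fold changes of -0.80 to -0.22, -1.39 to -0.32, -0.39 to -0.09 and 0.39 to 1.44. The smallest adjusted p of any receptor was 0.096 (Tlr8, without NM1 WT replicate 2). The other 6 receptors changed sign under some alternatives, none past the threshold. With the Y-linked state as covariate the values were -0.11 for Tlr2, -0.024 for Tlr4, 0.63 for Tlr3 and -0.051 for Tlr7. Tlr3 had 0.63 with limma-voom. Leaving out 1 library gave -0.19 to 0.24 for Tlr2, -0.045 to 0.68 for Tlr4, -0.55 to 1.29 for Tlr3, -0.20 to 0.39 for Tlr7, -0.30 to 0.10 for Tlr9 and -0.35 to 0.26 for Tlr13. The cause was not tested.

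Of the signalling genes 0 of 85 passed, but 8 of 90 with no low-count filter (Ccl2, Cd36, Il1a, Il1b, Il1rl1, Irf7, Pld4 and Tab3). There were 4 with DESeq2, 1 at adjusted p under 0.1 and 0 to 1 without 1 library (Irf7 without NM1 WT 2). Over all tested genes, calls were 117 of 15069, 1138 of 24358 with no low-count filter and 794 of 15069 with DESeq2. There were 37 with limma-voom, 60 with the Y-linked state as covariate and 26 to 344 without 1 library. NM1 WT 1, 2 and 3 left out in turn gave 26, 344 and 30, and NM1 KO 2 and 3 gave 40 and 177. With the replicate number as a block there were 421 calls and 1 signalling gene (Pld4), and Tlr3 had 0.44. Deviations of same-numbered libraries correlated at 0.06, 0.12 and 0.06 across genes, which does not establish pairing, although each library correlated best with its own number.

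In the order by level, Tlr6 stood at place 6 instead of 5 by longest transcript and by CPM, Tlr4 stood at place 4 by CPM and Tlr9 at 8 by longest transcript and by CPM; without 1 library the places were 3 to 4 for Tlr7 and 7 to 8 for Tlr9. The endosomal share differed by -0.27 to 3.71 points. The surface median kept its sign (-0.33 to -0.09), but the endosomal median (-0.05) ran from -0.20 to 0.26 and was positive under 6 of 15 alternatives, among them limma-voom (0.13) and the replicate block (0.14). Depth limits Tlr3 and Tlr5, with 4 to 46 counts per library, and fewer read pairs if both mates were counted.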
